A study of Mus musculus with 24 samples.

Results

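The alpha tubulins are the subunits that pair with beta tubulins to build microtubules, the target of paclitaxel. The 5 genes described here, Tuba1a, Tuba1b, Tuba1c, Tuba4a and Tuba8, were taken from the count table by their symbols, and all 5 were found among its 55418 genes. RNA had been sequenced from the lumbar spinal cord of 24 C57BL/6J mice, 3 in each of 8 groups that cross genotype, treatment and sex. Mice were wild-type or had a myeloid-specific knockout of Chrna7, which encodes a nicotinic acetylcholine receptor subunit, alpha7. They were 8 to 10 weeks old and received 4 injections of vehicle (Kolliphor, ethanol and water) or of paclitaxel at 1 mg per kg, and their cords were collected on day 7, counted from the first dose. The alleles and the driver of the deletion are not given in the sources used here.

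Each alpha tubulin is folded by the cytosolic chaperonin and the tubulin cofactors, joins a beta tubulin, and the dimers add to microtubule ends. Paclitaxel binds the beta subunit within the polymer and stabilises it, and painful neuropathy is a known side effect of the drug. Cells are known to adjust tubulin mRNA to the amount of free dimer, since an excess of free dimers speeds the decay of these mRNAs. Alpha tubulins differ little in their bodies and more in their tails, where enzymes remove and restore a terminal tyrosine and add chains of glutamate or glycine. A lysine on the inner face of the microtubule is acetylated by Atat1, and this mark is common on long-lived microtubules. Tuba1a is the alpha tubulin best known from neurons, Tuba1b and Tuba1c are expressed in many tissues, and Tuba4a and Tuba8 are found in some adult tissues.

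The coding sequences show where the genes differ at the sites those enzymes act on. The last 30 coding bases of the principal transcripts of Tuba1c, Tuba4a and Tuba8 (GENCODE M21, build GRCm38), the stop codon included, are given 5′ to 3′, with the last codon before the stop in capitals because it sets the terminal residue.
Tuba1c: gaaggagacgatgagggtgaggaaTATtaa
Tuba4a: tatgaggacgaggatgagggagaaGAGtag
Tuba8: gaagaagagaatgagggggaggaaTTTtaa
Read with the standard genetic code, the last codon encodes tyrosine in Tuba1c. It encodes glutamate in Tuba4a, so that this mRNA has no codon for a terminal tyrosine, and phenylalanine in Tuba8.

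The 27 bases around codon 40, counted from the start codon, are given in the same way with codon 40 in capitals, since the acetylated lysine lies there.
Tuba1a: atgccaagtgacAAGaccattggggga
Tuba1b: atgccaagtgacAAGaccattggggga
Tuba1c: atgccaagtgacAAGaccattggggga
Tuba4a: atgcccagcgatAAGaccattggtgga
Tuba8: tttggcactcagGCCagcaagatcaac
Codon 40 encodes lysine in 4 of the 5 genes and alanine in Tuba8. Tuba1a, Tuba1b and Tuba1c are identical over these bases.

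This likeness limits the counts. Tuba1b (chr15:98931425-98934565, minus strand) and Tuba1a (chr15:98949837-98953703, minus strand) are neighbours 15271 bases apart, and Tuba1c (chr15:99029891-99038110, plus strand) lies 76187 bases beyond Tuba1a. Tuba4a is on another chromosome (chr1:75214228-75219865, minus strand), as is Tuba8 (chr6:121210696-121226854, plus strand). The coding sequences of Tuba1a and Tuba1b were identical at 98.3% of bases, those of Tuba1b and Tuba1c at 97.9% and those of Tuba1a and Tuba4a at 84.7%, while Tuba8 shared 78.8 to 80.8% with the others. Of all 100-base windows of the principal transcript, 65.8% in Tuba1a, 73.0% in Tuba1b and 53.4% in Tuba1c also occurred exactly in a transcript of another gene. The labels and headers used here state no read length, and for Tuba1a the share was 75.5% at 50 bases and 54.7% at 150 bases. Taken singly, reads from a window held at another locus map to several places, and reads from a window held by an overlapping gene fall on both genes. Neither kind would then be counted, and these 3 genes would be measured mainly through the windows that only they hold. If reads were aligned in pairs, a mate outside the shared windows could place a read inside them, which was not tested. Tuba4a and Tuba8 share few coding windows with other genes, but 37.3% of the exon bases of Tuba4a overlap Stk16 and 16.3% of those of Tuba8 overlap Gm15856. Gm49450 overlaps 26.2% of the exon bases of Tuba1a, and with Gm41396 27.4% of those of Tuba1b. Counting ignored strand, so reads from these overlaps were lost whichever gene they came from. The lost reads lower a gene's level, and their part in the comparisons between groups was not tested.

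Libraries held 88812295 to 112158154 counts. Chrna7 lay at 9.38 to 15.9 CPM (the gene's counts scaled to the library total) in wild-type cords. In knockout cords it lay at 9.09 to 14.5 CPM. The label cannot be checked with these values, since the myeloid part of this level was not measured and the deleted exons are not given. One library, that of the wild-type female paclitaxel group's replicate 3, did not have the profile of spinal cord. Summed dorsal root ganglion neuron markers (3 of 8 at 1 CPM or more in the median cord) lay at 3544 CPM there against 54.2 to 107 CPM in the other libraries. Prph made up most of that sum in the other libraries, at a median of 60.2 CPM. Each of the 8 was higher in this library than in any other, Prph at 1319 CPM. The summed astrocyte markers of this library were at 4.21% of their median. Its values are given on their own near the end, the 23 other libraries are called cords, and group values and tests rest on those 23. Summed neuron markers (8 of 8 at 1 CPM or more in the median cord) lay at 5151 to 5808 CPM in the cords, and oligodendrocyte markers at 23774 to 28490 CPM.

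Tuba1a was the most abundant alpha tubulin of the cord. Its level per kilobase of exon (RPKM) was 261 ± 27.2 (SD, n = 23 cords), against 143 ± 12.8 for Tuba1b, 77.7 ± 6.41 for Tuba4a, 2.40 ± 0.264 for Tuba8 and 0.407 ± 0.0929 for Tuba1c. This order was the same in 23 of 23 cords, and no neighbouring pair in it overlapped over the cords. Without division by length Tuba4a, at a median of 294 CPM, stood above Tuba1b, at 271 CPM, because its exons sum to 3701 bases against 1875. Tuba1c had at most 146 counts in a cord, so its values carry more counting error than those of the others. The remaining alpha tubulin genes were near 0, with at most 4 counts for Tuba3a, 4 for Tuba3b and 8 for Tubal3 in any cord.

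What paclitaxel did to these genes was asked first in the knockout, where the values of all 5 were higher with the drug. Tuba1b lay at 224, 231, 247, 271, 272 and 274 CPM in the 6 knockout vehicle cords, and at 277, 285, 288, 293, 293 and 303 CPM in the 6 knockout paclitaxel cords. Every paclitaxel cord was above every vehicle cord, and the means were 290 ± 8.84 and 253 ± 22.4 CPM (SD, n = 6 each). The log2 fold change of Tuba1b was 0.20 (SE 0.05), and the edgeR adjusted p was 0.185, so it did not pass.

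Tuba1a lay at 385, 389, 401, 473, 478 and 480 CPM in knockout vehicle cords, and at 467, 480, 481, 516, 518 and 565 CPM in knockout paclitaxel cords. The groups overlapped, with 4 paclitaxel cords above the highest vehicle cord and 3 vehicle cords well below the rest. Its means were 505 ± 36.2 and 434 ± 47.3 CPM, with a log2 fold change of 0.22 (SE 0.05) and an edgeR adjusted p of 0.185. The 3 low vehicle cords were female replicate 2 and male replicates 2 and 3, in which 4 or 5 of the 5 alpha tubulins were under their median over the 23 cords. In the 3 other vehicle cords 1 of 5 was under it.

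Tuba4a, whose last codon encodes glutamate, lay at 304 ± 7.50 CPM with paclitaxel and 276 ± 29.95 CPM with vehicle in knockouts, and 3 of 6 paclitaxel cords were above the highest vehicle cord. Its log2 fold change was 0.15 (SE 0.06, edgeR adjusted p = 0.335). Tuba8, which has no lysine at codon 40, lay at 5.89 ± 0.363 against 5.04 ± 0.837 CPM, and its fitted log2 difference was 0.23 (SE 0.09, edgeR adjusted p = 0.351). The scarce Tuba1c lay at 1.08 ± 0.164 against 0.768 ± 0.161 CPM, with the largest fitted change of the 5 and the widest error (log2 0.49, SE 0.17, edgeR adjusted p = 0.280). In each of the 5 genes, 6 of 6 paclitaxel cords were above the vehicle mean, but the share of all genes with this trait was not counted. The members vary together, as described further on, so these are not 5 separate results. Split by sex, the mean of Tuba1b was 16.4% higher in knockout males and 12.54% higher in knockout females, without overlap in either sex (n = 3 against 3). The mean of Tuba1a was 28.2% higher in knockout males, without overlap, and 5.08% higher in knockout females, with overlap. The share of all genes that separate in this way, over 6 against 6 or 3 against 3 cords, was not counted. Within 1 sex, vehicle and paclitaxel cannot be told apart from the library numbers described further on.

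By edgeR, 0 of the 5 alpha tubulins were called (adjusted p under 0.05) in this comparison, where 0.0236% of all 25372 tested genes were. All 5 had an unadjusted p under 0.05, as did 11.3% of all genes, and their median log2 fold change was 0.22 beside 0.00198 over all genes. The choice of tool decides the call for Tuba1a and Tuba1b. With DESeq2 their adjusted p were 0.0348 and 0.0338, where DESeq2 called 0.497% of all genes. Without knockout male vehicle replicate 1 edgeR called both (adjusted p 0.0167 and 0.0209), with 1.31% of all genes. With limma voom none of the 5 was called. Fewer cells of a type and less RNA per cell cannot be told apart in these bulk samples. Summed neuron markers had close means in the knockout groups, at 5502 ± 237 CPM with vehicle and 5522 ± 108 CPM with paclitaxel. Snap25 made up most of this sum, at means of 3628 and 3644 CPM. Slc17a6 (290 and 268 CPM) and Slc6a5 (552 and 541 CPM) had lower means with paclitaxel. The other members of the list had higher means, Gad1 among them (154 and 173 CPM). Of the 3 vehicle cords with low alpha tubulins, female replicate 2 and male replicate 3 had the lowest neuron sums of their group, at 5151 and 5315 CPM, and male replicate 2 was at 5565 CPM, within the 5519 to 5808 CPM of the other 3. Summed endothelial markers (6 of 6 at 1 CPM or more in the median cord) were higher with paclitaxel, at 162 to 284 CPM against 109 to 186 CPM with vehicle. The low male replicates 2 and 3 had the lowest sums, at 132.2 and 108.6 CPM. The low female replicate 2 was at 170.2 CPM, within the 159.5 to 186.4 CPM of the other 3 vehicle cords. The part of either cell type in the result was not tested.

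**Figure D1:**
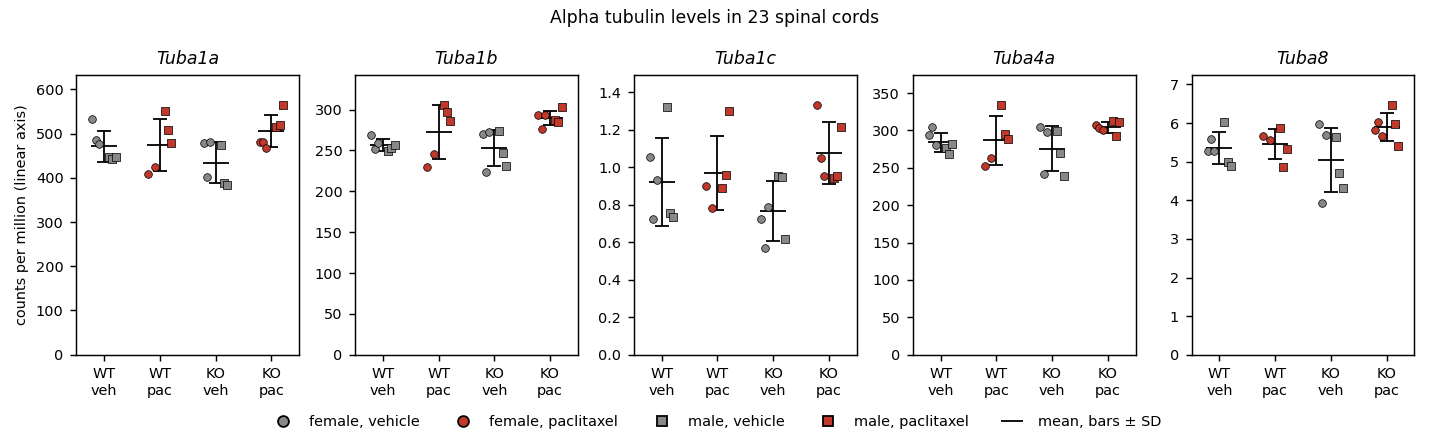
Level of each alpha tubulin in CPM (vertical axes, linear, each panel with its own scale) in 23 cords by genotype (WT wild-type, KO knockout) and treatment (veh vehicle, pac paclitaxel); circles are females, squares males, and bars show the mean ± SD. Tuba1b separates in the knockout, at 224 to 274 CPM with vehicle and 277 to 303 CPM with paclitaxel, and the wild-type groups overlap in every panel.

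In wild-type mice the same comparison gave fitted values near 0 with both sexes weighed equally. The sexes shifted in opposite directions for Tuba1a, Tuba1b and Tuba4a. Tuba1a lay at 442, 447, 447, 475, 485 and 534 CPM in 6 vehicle cords and at 407, 424, 479, 508 and 551 CPM in 5 paclitaxel cords. The paclitaxel cords spread to both sides of the vehicle cords, with the 2 females lowest and the 3 males highest. Tuba1b lay at 249, 251, 253, 257, 260 and 269 CPM with vehicle and at 229, 246, 286, 297 and 305 CPM with paclitaxel, again with the 2 females below and the 3 males above. The log2 fold changes, which weigh both sexes equally, were -0.04 (SE 0.06) for Tuba1a, 0.04 (SE 0.05) for Tuba1b, 0.02 (SE 0.18) for Tuba1c, -0.03 (SE 0.06) for Tuba4a and 0.02 (SE 0.10) for Tuba8. By edgeR 0 of 5 were called, beside 0% of all genes, and 0 of 5 had an unadjusted p under 0.05. DESeq2 and limma voom called none of the 5 either.

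The difference between the genotypes in this response was tested itself. The knockout response was above the wild-type response for all 5 genes, by 0.26 (SE 0.08) on the log2 scale for Tuba1a, 0.16 (SE 0.07) for Tuba1b, 0.47 (SE 0.25) for Tuba1c, 0.18 (SE 0.09) for Tuba4a and 0.20 (SE 0.14) for Tuba8. The smallest edgeR adjusted p of the 5 was 0.512, for Tuba1a, so a difference between the genotypes was not shown. The wild-type response rests on 2 female and 3 male paclitaxel cords, which shifted in opposite directions for Tuba1a, Tuba1b and Tuba4a. In this test too 0% of all genes were called, while 3 of the 5 and 8.41% of all genes had an unadjusted p under 0.05. Over both genotypes, the paclitaxel comparison called 0 of 5 (0.0197% of all genes), with Tuba1b higher by a log2 of 0.12 (SE 0.03, edgeR adjusted p = 0.205) and 3 of 5 at an unadjusted p under 0.05, as were 10.2% of all genes. The knockout against wild-type comparison called 0 of 5 (0.0118% of all genes), with fold changes of -0.04 to 0.05 on the log2 scale and 0 of 5 at an unadjusted p under 0.05. DESeq2 called none of the 5 in any of these 3 comparisons.

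**Figure D2:**
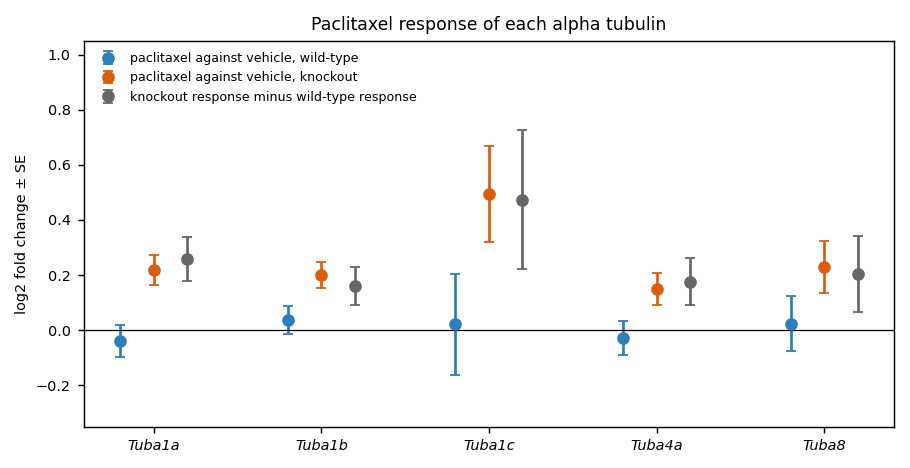
Log2 fold change (vertical axis, points with SE bars) of paclitaxel against vehicle for each alpha tubulin in wild-type (blue) and knockout mice (orange), and the knockout minus the wild-type response (grey), over 23 cords. The knockout values run from 0.15 to 0.49 and the wild-type values from -0.04 to 0.04.

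The response was compared between males and females as well, and here 1 of the 5 passed. Tuba1a lay at 385, 389, 442, 447, 447 and 473 CPM in male vehicle cords and at 479, 508, 516, 518, 551 and 565 CPM in male paclitaxel cords, without overlap. In females it lay at 401, 475, 478, 480, 485 and 534 CPM with vehicle and at 407, 424, 467, 480 and 481 CPM with paclitaxel, which overlapped. The male mean was 21.4% higher with paclitaxel and the female mean changed by -4.99%. The response of males minus that of females was 0.40 (SE 0.08) on the log2 scale for Tuba1a, with an edgeR adjusted p of 0.0142, in a test that called 4.96% of all genes. It kept this call when each of the 23 libraries was left out in turn (adjusted p 0.000784 to 0.0428). With the ganglion-like library among the females the value for Tuba1a was -0.18 and 0% of all genes were called.

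Tuba1b had values in the same direction, with 285 to 305 CPM in male paclitaxel cords and 231 to 274 CPM in male vehicle cords, but the difference between the sexes did not pass (log2 0.22, SE 0.07, edgeR adjusted p = 0.0564). That outcome rests on the method: Tuba1b was called with DESeq2 (adjusted p = 0.0283), which called 9.36% of all genes, and in edgeR with a replicate block (adjusted p = 0.0445), which called 7.45%. EdgeR also called it without knockout female vehicle replicate 2, knockout male vehicle replicate 1 or wild-type male paclitaxel replicate 3 (adjusted p 0.0141 to 0.0374). Tuba4a had a difference of 0.23 (SE 0.09, edgeR adjusted p = 0.121), Tuba8 of 0.06 (SE 0.14) and Tuba1c of -0.03 (SE 0.25). The male against female comparison itself, over both treatments, called 0 of 5 (0.918% of all genes), with 0 of 5 at an unadjusted p under 0.05, and DESeq2 called none of them.

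The sex difference in response cannot be told apart from the order of the libraries. The labels number the libraries, and numbers 1 to 12 hold the 6 female vehicle and the 6 male paclitaxel libraries, while 13 to 24 hold the 6 male vehicle and the 6 female paclitaxel libraries. Tuba1a lay at 499 ± 43.3 CPM in the 12 libraries of the lower numbers and at 440 ± 34.98 CPM in the 11 cords of the higher ones. The labels do not say what the numbers stand for. The same holds for each comparison of paclitaxel with vehicle within 1 sex, those of Tuba1a and Tuba1b in knockout males and knockout females included. The edgeR comparisons of treatment and of genotype, which weigh both sexes equally, draw on both sets of numbers in each arm. Summed skeletal muscle markers (2 of 5 at 1 CPM or more in the median cord) differed between the sets too, at 10.8 ± 9.43 CPM in the lower and 4.29 ± 1.91 CPM in the higher numbers. Markers of oligodendrocyte precursors (4 of 4 at that level) lay at 240 ± 22.6 and 215 ± 14.5 CPM, of endothelium at 192 ± 16.2 and 167 ± 43.1 CPM, and of Schwann cells at 479.6 ± 119 and 399.8 ± 88.1 CPM. Neuron markers lay at 5550 ± 174 and 5485 ± 95.7 CPM. The part of these cell types in the result was not tested.

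**Figure D3:**
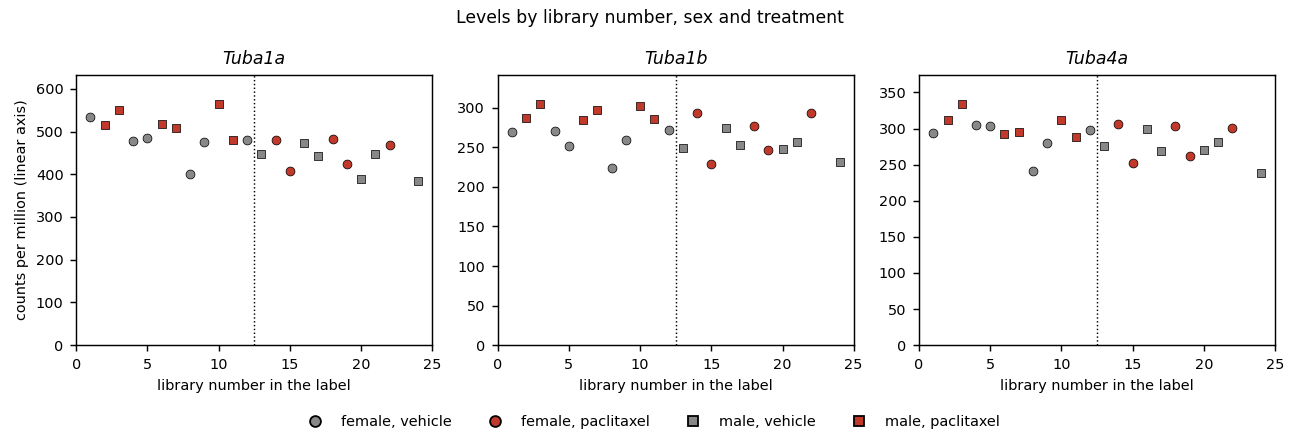
Level in CPM (vertical axes, linear) of Tuba1a, Tuba1b and Tuba4a in each of 23 cords against the library number in the label (horizontal axes); circles are females, squares males, grey vehicle and red paclitaxel, and the dotted line parts numbers 1 to 12 from 13 to 24. Each sex and treatment is on 1 side of the line, and the highest Tuba1a value, 565 CPM, is on the left.

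The mix of isotypes lay in a narrow range over the cords. Of the summed alpha tubulin CPM, Tuba1a made up 42.7 to 48.4% of a cord (median 45.5%), Tuba4a 26.3 to 29.6% (27.97%), Tuba1b 24.0 to 27.4% (25.9%), Tuba8 about 0.53% and Tuba1c about 0.087%. Per kilobase of exon the medians were 53.8% for Tuba1a, 29.3% for Tuba1b and 16.1% for Tuba4a. Per window that no other gene holds (100 bases), they were 50.0% for Tuba1a, 37.3% for Tuba1b and 12.3% for Tuba4a. This scale was chosen after seeing the data and takes each read alone, without its mate. With windows of 50 and 150 bases the Tuba1b share was 41.6 and 32.3%, and the Tuba4a share 9.04 and 16.1%. The order Tuba1a, Tuba1b, Tuba4a, Tuba8, Tuba1c held on that scale as well in 23 of 23 cords, while the size of the Tuba1b share rests on how uncounted reads are allowed for.

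No share differed between paclitaxel and vehicle past the test, in either genotype. In wild-type mice the Tuba1b share was 26.2 ± 0.689% with paclitaxel (n = 5) and 25.2 ± 0.854% with vehicle (n = 6), 1.02 percentage points higher, with 5 of 5 paclitaxel cords above the vehicle mean. Its exact two-sided permutation p was 0.0693, and 0.346 after Benjamini-Hochberg adjustment over the 10 comparisons (5 isotypes, 2 genotypes). The Tuba1a share differed by -0.723 points there (exact permutation p = 0.216). In knockouts the Tuba1a share was 0.777 points higher (exact permutation p = 0.353), the Tuba1b share 0.0569 points higher (exact permutation p = 0.842), and the Tuba4a share differed by -0.868 points (exact permutation p = 0.117), with 0 of 6 paclitaxel cords above the vehicle mean. The smallest p in knockouts was that of the Tuba1c share, 0.0973 ± 0.0143% against 0.0792 ± 0.0148% (exact permutation p = 0.0584, adjusted 0.346). The smallest p that the 6 against 6 or 5 against 6 cords could give was 0.00216, so the design could have passed a larger shift. This test pools the sexes and takes no account of the library numbers, over which the shares differed, with Tuba1a at 46.3 ± 0.985% in the lower and 44.8 ± 0.904% in the higher numbers.

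**Figure D4:**
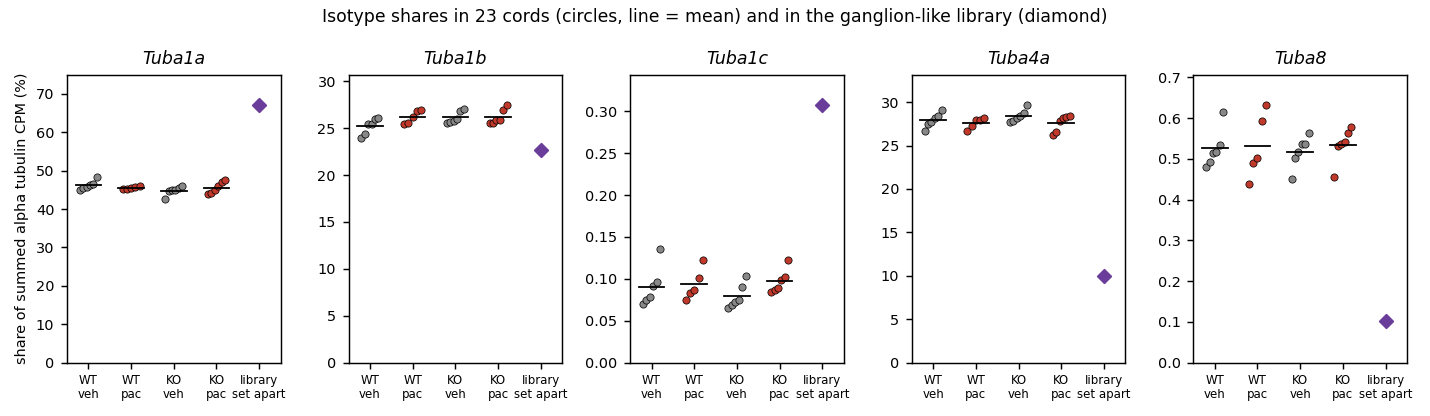
Share of each isotype in the summed alpha tubulin CPM in percent (vertical axes, linear, each panel with its own scale) in 23 cords by genotype and treatment (grey vehicle, red paclitaxel, lines are means), and in the ganglion-like library (diamond). The diamond lies above all cords for Tuba1a (67.0%) and Tuba1c, and below all cords for Tuba1b, Tuba4a (9.92%) and Tuba8.

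The ganglion-like library, labelled wild-type female paclitaxel replicate 3, had another mix. Tuba1a was at 1808 CPM, 3.78 times the median of the cords, and took 67.0% of the sum (95% Wilson interval 66.8 to 67.2%, counting error only). The intervals given for this library take each count as separate, and are too narrow if both mates of a pair were counted. Tuba1b was at 611 CPM, 2.26 times the median, but its share was 22.6% (22.5 to 22.8%). Tuba1c was at 8.28 CPM, 8.78 times the median, from 785 counts. Tuba4a, at 268 CPM, was within the range of the cords, and its share was 9.92% (9.81 to 10.0%), under the lowest cord. Tuba8, at 2.75 CPM, was under the lowest cord, at 3.93 CPM, with a share of 0.102% (0.0904 to 0.115%). The summed level was 2697 CPM against 859 to 1198 CPM in the cords, and the ratio of Tuba1a to Tuba1b was 2.96 against 1.57 to 1.99. It is 1 library, so no test was made. The tissue and the labelled treatment cannot be told apart in it.

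Other markers of that library give the context of these values. Its summed Schwann cell markers (5 of 5 at 1 CPM or more in the median cord) were at 3743 CPM against 290 to 670 CPM in the cords, its oligodendrocyte markers at 12.3% of their median, and its skeletal muscle markers at 412 CPM against 2.18 to 36.6 CPM. Its summed neuron markers were at 4385 CPM, 79.5% of their median, and the members of that list went both ways. Chat, the enzyme of cholinergic neurons, was at 0.749 CPM against a median of 31.6 CPM. Slc6a5, Gad1 and Snap25 were at 0.0218, 0.0334 and 0.531 times their medians. Rbfox3, Slc17a6, Syt1 and Stmn2 were at 1.02, 1.04, 1.34 and 3.35 times theirs. Among the beta tubulins, the neuronal Tubb3 was at 2172 CPM, 4.73 times its median, while Tubb4a was at 322 CPM, 0.452 times its median. Tuba4a and Tuba8 thus shared with Tubb4a a level at or under the cord median, and the other alpha tubulins were above it.

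Among the 23 cords, the 3 abundant alpha tubulins varied together. Pearson's r of log2 CPM over 23 cords was 0.87 for Tuba1a with Tuba1b, 0.89 for Tuba1a with Tuba4a and 0.90 for Tuba1b with Tuba4a, and within groups 0.87 to 0.89. Tuba8 followed them less (0.57 to 0.71), as did Tuba1c (0.47 to 0.57), whose counts are low. These points share library, scaling and, for Tuba1a, Tuba1b and Tuba1c, near-identical sequence, so the values are a description. Of 12397 genes with a mean of at least 5 CPM, those most like Tuba1a were Tubb4a (r = 0.96), Tubb2a (0.95) and Atp6ap1 (0.95). Those most like Tuba1b were Eno2 (0.95), Capns1 (0.94) and Tubb4b (0.94), and those most like Tuba4a were Got2 (0.96), Atp6v0d1 (0.96) and Got1 (0.96). Tuba8 was most like Tspan7 (0.82), Copz1 (0.77) and Yipf1 (0.76), and Tuba1c most like Cep85 (0.75), F11r (0.73) and Trim26 (0.73).

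The beta tubulins, the partners in the dimer, had values like those of the alpha tubulins. In the knockout, 7 of 8 were higher with paclitaxel (50.6% of all genes) and 0 were called by edgeR, with a median log2 fold change of 0.20. The 8 include Tubb1, at a median of 0.0651 CPM and at most 0.278 CPM in a cord, which is near the floor. Tubb4a, Tubb2a and Tubb4b vary together with Tuba1a or Tuba1b, as given above, so these are not 8 separate results. The smallest p belonged to Tubb4b, the broadly expressed isotype (0.21, SE 0.05, edgeR adjusted p = 0.185), Tubb3 (0.19, SE 0.06, adjusted 0.225) and Tubb4a (0.22, SE 0.06, adjusted 0.225). In wild-type mice 1 of 8 was higher (51.9% of all genes) and 0 were called (0% of all genes). In the difference between male and female response 5 of 8 were called, beside 4.96% of all genes, all higher in males, and they were Tubb4a (log2 0.45, adjusted p = 0.0154), Tubb2a (0.41), Tubb2b (0.42), Tubb3 (0.34) and Tubb5 (0.31). That difference carries the same confounding with library number as for Tuba1a.

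The genes that fold and modify alpha tubulin gave no call for paclitaxel in either genotype, where 0.0236% of all genes were called in the knockout and 0% in wild-type mice. Of all tested genes 50.6% were higher in the knockout with paclitaxel and 51.9% in wild-type mice. Of the 8 chaperonin subunits, 7 were higher in the knockout with paclitaxel, led by Cct3 (log2 0.14, SE 0.05, edgeR adjusted p = 0.273) and Cct7 (0.12, adjusted 0.297), and 1 was higher in wild-type mice. Of the 7 folding cofactors, which assemble the dimer, 4 were higher in the knockout, with Tbcb at 0.07 (SE 0.04, adjusted 0.513). Of the 3 acetylation genes all were higher, with Sirt2, a deacetylase, at 0.09 (SE 0.04, adjusted 0.355), Hdac6, also a deacetylase, at 0.04, and Atat1 at 0.04. Of the 5 measured genes for removal and return of the tyrosine, 1 was higher, with the carboxypeptidase Vash1 at -0.05 (SE 0.07, adjusted 0.850) and its partner Svbp at -0.05. Of the 21 genes that add or trim glutamate and glycine chains, 10 were higher, with Ttll9 at 0.25 (SE 0.09, adjusted 0.271), Ttll1 at 0.13 and Ttll7 at -0.12. In the difference between male and female response, Tbce (-0.21, edgeR adjusted p = 0.0220), Ttll4 (-0.28, 0.0183) and Ttll7 (-0.23, 0.0363) were lower and Ttll1 (0.24, 0.0355) higher. These calls fell in 2 of the 5 lists, 1 of 7 folding cofactors and 3 of 21 chain genes, beside 4.96% of all genes, and that contrast cannot be told apart from the library numbers.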

How the data were processed

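The deposited table gives raw counts of each gene in 24 libraries, and the gene's exon length as another column, per the file headers. The submitters' processing notes name STAR (version not given in the sources used here) for alignment and featureCounts 1.6.2 for counting. The authors counted exons of Ensembl GRCm38 release 96 by gene name, with no option for strand, read pairs or reads that map to several places, per the file headers. Of the genes with 1 to 20 counts, 34.4 to 37.3% had an odd count, fewer than chance gives if each count were 1 molecule, so totals may count both mates of a pair.

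Levels are CPM from library totals, and RPKM divides them by the deposited exon length. Fold changes come from edgeR 4.0.16 (R 4.3.3): filterByExpr over the 8 groups, TMM factors, robust quasi-likelihood fits to group means over 23 libraries, with Benjamini-Hochberg adjustment over 25372 genes and a call at adjusted p under 0.05. The code of the fit was tested on simulated counts with the same spread in all genes and no effect of library number. That setting is simpler than these data. Shares were tested with exact permutation. Coding sequences, identities and shared windows come from GENCODE M21, matched for 5 of 5 genes. Alternatives used DESeq2 1.42.0, limma 3.58.1 (voom), other scaling, no filter on low counts, a replicate block, all 24 libraries, each genotype alone, and each library left out. Named genes are the 5 alpha tubulins, genes of the lists that were called, otherwise the 3 of smallest p in the knockout comparison, and the 3 genes of highest correlation with each. The members and lists were chosen with earlier results of these data known. Each library is a separate mouse, per the labels, which give no pairing by replicate number. Replicates of each group differed by more than sampling noise (lowest chi-square per degree of freedom 8.98).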

Additional observations from a re-analysis of the deposited data

Results flagged for a closer look

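Paclitaxel responses of Tuba1a differed between the sexes by a test of the difference itself, 0.40 on the log2 scale (edgeR adjusted p = 0.0142), in a contrast that coincides with the library numbers. The ganglion-like library (wild-type female paclitaxel replicate 3), left out of the comparisons, held 1808 CPM of Tuba1a, 611 CPM of Tuba1b and 8.28 CPM of Tuba1c, above the highest of the 23 cords at 565, 305 and 1.33 CPM. In 40 sets of 4 to 10 cords tested for a value far from the others, none was found.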

How the results depend on the processing

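Over 23 cords, RLE scaling and limma voom changed no direction or call, and counts of genes stayed within 1.5 times. Without the filter on low counts, edgeR called 254 genes for paclitaxel in wild-type, 470 in knockout, 338 over all animals, 99 for genotype, 749 for sex, 366 for genotype by treatment and 2181 for sex by treatment, and of the 5 alpha tubulins it called 3 in knockout, 1 over all animals, 1 for genotype by treatment and 3 for sex by treatment; the cause was not tested. DESeq2 called 4, 126, 158, 5, 583 and 2376 genes for paclitaxel in wild-type, in knockout and over all animals, genotype, sex and sex by treatment, and 2 alpha tubulins in knockout and 2 for sex by treatment. With library totals alone 3 genes were called for paclitaxel over all animals, and with knockout libraries alone 3 for paclitaxel in knockout.

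With all 24 libraries, 0 genes were called in knockout, over all animals and for sex by treatment (0 alpha tubulins), and 28 for sex. Signs then reversed for Tuba1a by genotype by treatment (-0.31), sex by treatment (-0.18), genotype (-0.29), sex (-0.25) and paclitaxel in wild-type (0.53), for Tuba1b by genotype by treatment (-0.17), sex by treatment (-0.11), genotype (-0.11) and sex (-0.10), for Tuba1c by genotype by treatment (-0.56) and sex (-0.38), for Tuba8 by sex (0.022) and paclitaxel in wild-type (-0.10), and for the wild-type shift in the share of Tuba1a (2.86 points) and Tuba8 (-0.0660 points). The Tuba1b share shift in knockout reversed per exon length (-0.0870 points) and per window that no other gene holds (-0.133 points). None of these reversed values passed its test.

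The labels give no pairing by replicate number. The 11 same-numbered pairs of a vehicle and a paclitaxel library of 1 sex and genotype had a median correlation of 0.008, with 1 over 0.1. Each such pair spans the lower and the higher library numbers. A block among same-numbered libraries that lie close together could therefore not be seen in these pairs. A replicate block gave 1891 genes and 2 alpha tubulins for sex by treatment (Tuba1b adjusted p = 0.0445) and 9 genes for paclitaxel over all animals, and changed no other call of an alpha tubulin.

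Leaving out each library in turn gave 0 to 4 genes for paclitaxel in wild-type, 0 to 332 in knockout (332 without knockout male vehicle replicate 1), 2 to 62 over all animals, 3 to 5 for genotype, 65 to 324 for sex, 0 to 1 for genotype by treatment and 248 to 2419 for sex by treatment (248 without wild-type female paclitaxel replicate 1). It called 0 to 2 alpha tubulins in knockout and 1 to 3 for sex by treatment, adding Tuba1b and Tuba4a without knockout female vehicle replicate 2 or knockout male vehicle replicate 1, and Tuba1b without wild-type male paclitaxel replicate 3. Signs turned for log2 values near 0: genotype in Tuba1a (-0.027 to 0.024), Tuba1c (-0.075 to 0.042) and Tuba8 (-0.023 to 0.052), sex in Tuba4a (-0.0026 to 0.045), sex by treatment in Tuba1c (-0.12 to 0.13) and Tuba8 (-0.0034 to 0.14), paclitaxel in wild-type in Tuba1c (-0.068 to 0.18) and Tuba8 (-0.017 to 0.072). The same held for the share shift of Tuba1b in knockout (-0.187 to 0.246 points), Tuba1c in wild-type (-0.0042 to 0.012) and Tuba8 in wild-type (-0.020 to 0.028). Depth limits Tuba1c, with at most 146 counts in a cord.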
